A study of Homo sapiens with 12 samples.

Results

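NuRD is a chromatin complex that joins a nucleosome remodelling ATPase, CHD4 or CHD3, to the histone deacetylases HDAC1 and HDAC2. The 10 genes described here encode that ATPase and deacetylase core with its MTA scaffold (MTA1, MTA2, MTA3), its histone-binding chaperones (RBBP4, RBBP7) and the methyl-CpG-binding family protein MBD3. They were taken by gene symbol from a table of 20318 genes, and each symbol had a single entry. All 10 passed a filter of at least 1 CPM (counts scaled to a common library total) in at least 3 libraries, as did 12721 genes in all. The set was chosen by the measured fall of CHD4 after 8 h, already known, with its partners in the complex added by name. The values of CHD4 at 8 h, and every contrast that uses them, are therefore a description with no test.

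The remodelling module of the complex slides nucleosomes with energy from ATP, and the deacetylase module removes acetyl groups from histone tails. CHD4 and CHD3 take the same place in alternative forms of the complex, and so do HDAC1 and HDAC2, the 3 MTA proteins, and MBD3 and MBD2. In lymphocytes NuRD is known as the partner of Ikaros family and other zinc finger transcription factors.

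The cells were Z138, an established mantle cell lymphoma line of wild-type genotype per the labels. They were treated with AU-15330 at 0.5 µM for 8 h (n = 3) or 24 h (n = 3), or with the solvent DMSO for 8 h (n = 2) or 24 h (n = 3). AU-15330 is a degrader of SMARCA4, SMARCA2 and PBRM1, subunits of the SWI/SNF (BAF) remodelling complexes, which are complexes distinct from NuRD. The DMSO 8 h group has 2 libraries here because 2 columns of the deposited table carried the same name and the same values, and the labels of replicates 2 and 3 both point to that name. They were counted as 1 library, called the unnumbered one.

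Totals estimated from the steps between low values lay between 50741217 and 67549182 counts per library, and libraries of a group had correlations of at least 0.9965 across genes. The labels give each time its own batch, so time and batch cannot be told apart. They do not say whether replicates came from separate cultures, so a p-value reflects no more than the scatter among the libraries, and that scatter may be technical. In bulk RNA, fewer cells of a type and less RNA per cell cannot be told apart. CCND1, the defining gene of mantle cell lymphoma, was at 2463 to 2894 CPM over all libraries. SOX11, the other marker of that lymphoma, was at 100 to 110 CPM in AU-15330 and 81.1 to 103 CPM in DMSO at 8 h, which overlap. It was at 188 to 197 CPM in AU-15330 and 76.4 to 88.3 CPM in DMSO at 24 h. Of the markers of T cells, myeloid cells and fibroblasts, CD3D, CD14 and COL1A2 stayed at or below 0.193 CPM. The summed level of 5 B cell markers was 503 to 552 CPM in AU-15330 and 925 to 952 CPM in DMSO at 8 h, and 414 to 439 CPM in AU-15330 and 1230 to 1233 CPM in DMSO at 24 h. The summed T cell markers, carried by CD3G, were at 4.22 to 5.66 CPM in AU-15330 and 13.3 to 13.4 CPM in DMSO at 8 h. At 24 h they were at 1.37 to 1.90 CPM in AU-15330 and 12.6 to 13.4 CPM in DMSO, with CD3E at or below 1.25 CPM throughout. Summed fibroblast markers, carried by COL1A1, were at 3.27 to 5.38 CPM in AU-15330 and 11.1 to 16.8 CPM in DMSO at 8 h. They were at 1.56 to 4.03 CPM in AU-15330 and 20.4 to 21.5 CPM in DMSO at 24 h. Summed myeloid markers, of which ITGAM reached 0.997 CPM, were at 0.114 to 0.738 CPM in AU-15330 and 0.258 to 0.606 CPM in DMSO at 8 h. The same sum was 0.262 to 0.342 CPM in AU-15330 and 0.633 to 1.25 CPM in DMSO at 24 h. The part of these marker shifts in the results below was not tested. Of the degraded proteins' own mRNAs, SMARCA2 was lower in AU-15330 at 24 h by limma with Benjamini-Hochberg adjustment over all genes (log2 fold change -0.87 ± 0.070 SE, adjusted p = 1.10e-06), as were SMARCA4 (-0.28 ± 0.048, adjusted p = 0.000489) and PBRM1 (-0.16 ± 0.051, adjusted p = 0.0190). At 8 h SMARCA2 (-0.48 ± 0.079, limma, adjusted p = 0.000261) and SMARCA4 (-0.16 ± 0.053, adjusted p = 0.0294) were lower, and PBRM1 did not pass (adjusted p = 0.982).

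CHD4, the main remodelling ATPase of NuRD, was at 0.338 of its DMSO level after 8 h of AU-15330 and was still below DMSO after 24 h. CHD4 (ENSG00000111642, GRCh38 chromosome 12, 6570082 to 6614524, minus strand) had 16419, 16672 and 14059 normalised counts in AU-15330 at 8 h, against 45715 and 47308 in DMSO at 8 h. At 24 h it had 27949, 29019 and 28949 normalised counts in AU-15330, against 47609, 44180 and 44880 in DMSO. The 3 AU-15330 8 h libraries were the lowest of all 11, the AU-15330 24 h libraries lay between them and DMSO, and no treated library overlapped a DMSO library. The log2 fold change, on log2(normalised count + 60), was -1.57 ± 0.064 (SE) at 8 h, rank 142 among the 12721 tested genes ordered by the depth of the fall. It was -0.67 ± 0.057 at 24 h, in libraries separate from those at 8 h (limma, adjusted p = 1.56e-06), rank 1076 in the same order. Between the times the AU-15330 libraries differed by 0.87 on the log2 scale, with CHD4 higher at 24 h, while the DMSO libraries differed by -0.03 ± 0.064 (SE).

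**Figure D1:**
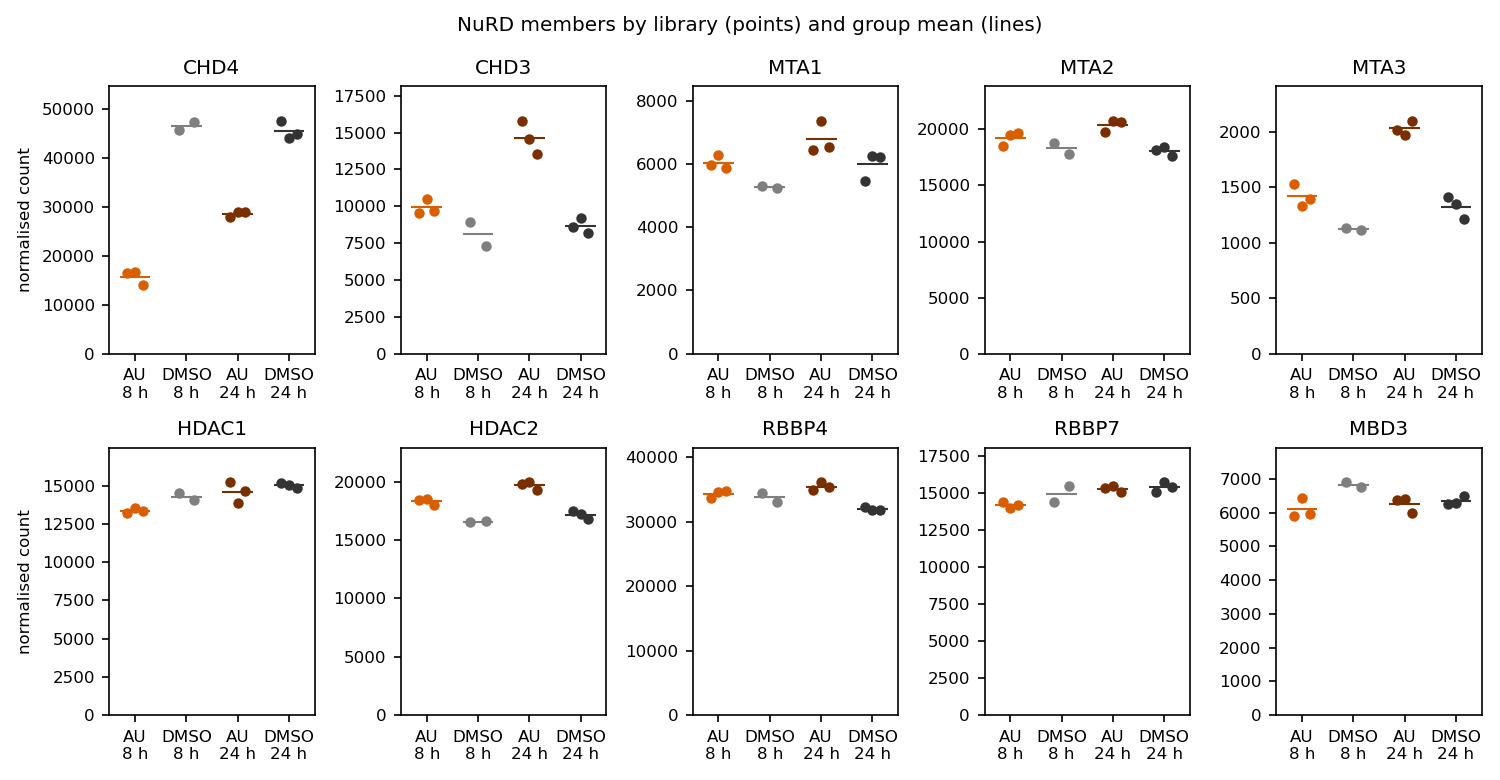
Normalised counts of the 10 NuRD genes in each library (points, replicates side by side) and the group mean (line); each panel has its own axis from 0, with AU-15330 (AU) left of DMSO at each time. CHD4 sits at 14059 to 16672 in AU-15330 at 8 h and at 27949 to 29019 at 24 h, below every DMSO library, and CHD3 reaches 13542 to 15800 in AU-15330 at 24 h.

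A second entry shares most of the CHD4 transcript. ENSG00000285238, annotated as a read-through transcript on the same strand, holds 87.3% of the 50-base windows of the principal CHD4 transcript, together with a small overlap on the other strand, so reads could be divided between these entries. It had 5774, 5639 and 5665 normalised counts in AU-15330 at 8 h, against 4409 and 5232 in DMSO. After 24 h there were 3863, 4024 and 3851 in AU-15330, against 4025, 5241 and 4328 in DMSO. The read-through entry was thus above DMSO at 8 h and below it at 24 h, with no overlap of the groups at 8 h and the nearest libraries almost equal at 24 h, and it never held more than 5774 counts. With both entries summed, CHD4 changed by -1.26 ± 0.051 at 8 h and by -0.62 ± 0.046 at 24 h (limma, adjusted p = 5.60e-07), a sum chosen after the data were seen.

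**Figure D2:**
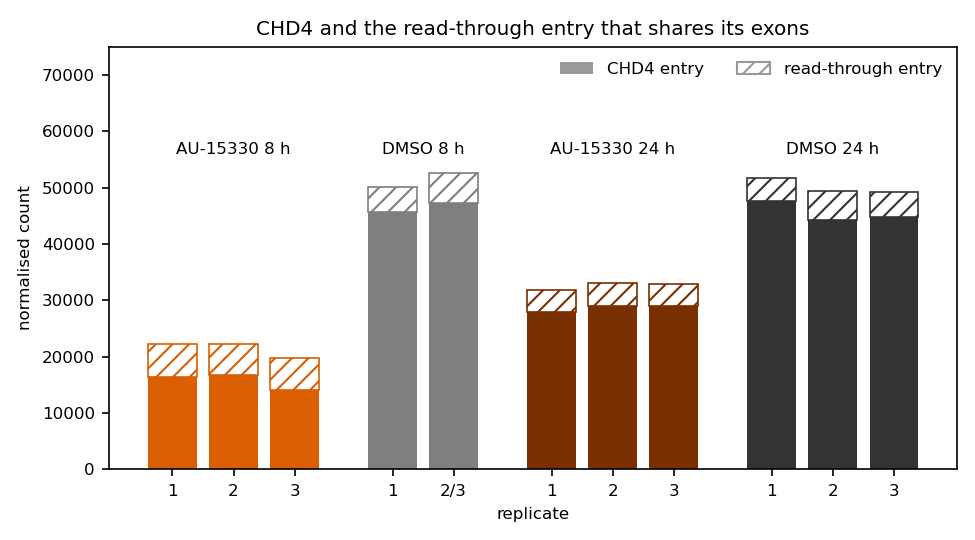
Stacked normalised counts of the CHD4 entry (filled) and of the overlapping read-through entry (hatched) in each of the 11 libraries, where 2/3 marks the unnumbered DMSO library. The sums run from 19724 to 22310 in AU-15330 at 8 h and from 31812 to 33043 at 24 h, below 49208 to 52540 in DMSO.

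CHD3, the paralogue that can take the place of CHD4, moved the other way. The short stretch of coding sequence around the ATP-binding loop is shown for both genes because it is a conserved part of the ATPase, and a reader can see there how far reads of the paralogues can be told apart. Capitals mark the 16 of 63 bases that differ between them, read 5′ to 3′ on the coding strand from GENCODE transcripts on GRCh38; the CHD4 stretch is chr12:6594474-6594536 (minus strand, exon 15 of 40) and the CHD3 stretch is chr17:7899125-7899187 (plus strand, exon 14 of 40).
CHD4: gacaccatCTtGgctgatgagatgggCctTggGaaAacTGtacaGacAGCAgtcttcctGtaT
CHD3: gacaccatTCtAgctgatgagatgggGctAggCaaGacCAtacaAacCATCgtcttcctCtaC
The differences are spread along the stretch, and the principal transcripts of CHD4 and CHD3 shared 0 windows of 50 bases, the read length named in the labels.

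CHD3 (ENSG00000170004, chromosome 17, 7884806 to 7912760, plus strand) had 9549, 10520 and 9685 normalised counts in AU-15330 at 8 h, against 8956 and 7313 in DMSO. At 24 h the counts were 15800, 14569 and 13542 in AU-15330, against 8600, 9177 and 8210 in DMSO. The groups did not overlap at either time, and the 24 h libraries of AU-15330 were the highest of all. CHD3 rose by 0.75 ± 0.078 on the log2 scale at 24 h (limma, adjusted p = 1.00e-05), and it was past the threshold in all 24 alternative settings tried. At 8 h it rose by 0.29 ± 0.088 (adjusted p = 0.0216), a call lost when AU-15330 replicate 2 or the unnumbered DMSO library was left out (adjusted p up to 0.252). On the deposited log2 scale the difference of 0.23 ran from 0.12 to 0.34 with 1 library left out. The effect was larger at 24 h than at 8 h by 0.46 ± 0.118 (limma interaction, adjusted p = 0.0168), which did not hold without DMSO 8 h replicate 1 (adjusted p = 0.0718).

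The balance of the ATPases was read per length, as normalised counts per kb of the principal transcript. CHD4 made up 63.9% ± 1.95 of the CHD3 and CHD4 sum in AU-15330 (SD, n = 3) and 86.5% ± 1.96 in DMSO (n = 2) at 8 h. At 24 h its share was 68.6% ± 2.07 in AU-15330 and 85.5% ± 0.975 in DMSO (n = 3 each). Shares in AU-15330 ran from 61.9% to 70.5% and those in DMSO from 84.3% to 87.9%, with no overlap, and CHD4 remained the more abundant of the pair in every library. At 8 h the CHD4 side of this share is the value by which the set was chosen. The share leaves out the read-through entry, which was above DMSO at 8 h, so its size depends on how reads were divided between the entries.

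Of the other 9 members, 4 were higher, 1 was lower and 4 did not pass the threshold (adjusted p under 0.05) at 8 h, where 44.2% of all tested genes were called, 22.9% higher and 21.4% lower. At 24 h, 6 were higher, 0 were lower and 3 did not pass, where 50.9% of all genes were called, 24.7% higher and 26.2% lower; at an unadjusted p under 0.05 none of the 9 was lower either. The median log2 fold change of the 9 was 0.07 at 8 h and 0.17 at 24 h, beside 0.02 and 0.01 over all tested genes. The libraries of 6 of the 9 did not overlap between AU-15330 and DMSO at 8 h (4 above, 2 below), nor did those of 62.5% of all tested genes; at 24 h they were apart for 6 (all above), and for 59.0% of all genes.

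**Figure D3:**
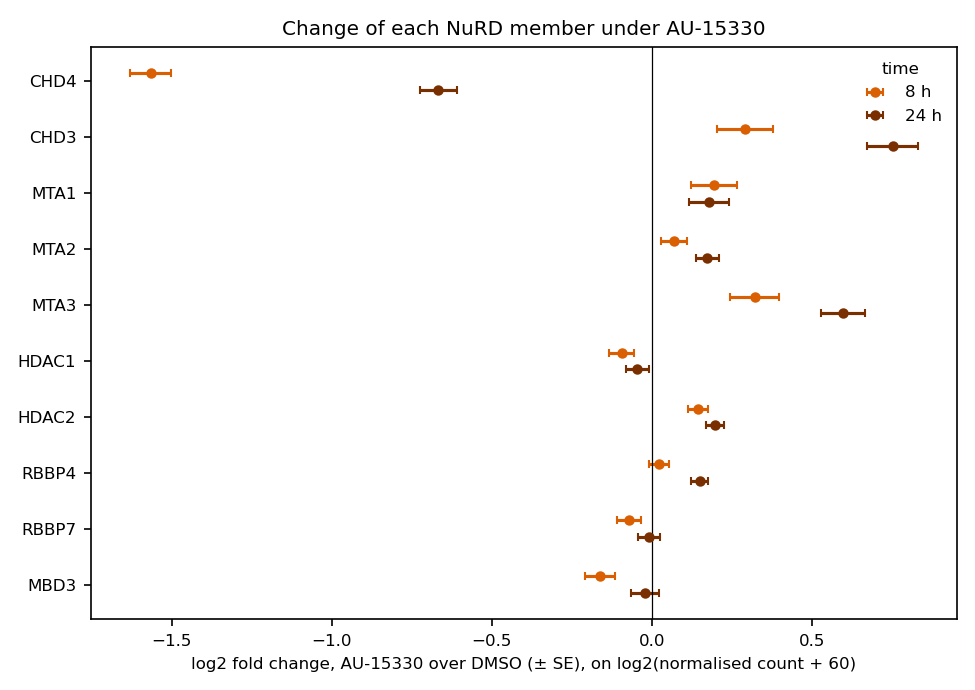
Log2 fold change of AU-15330 over DMSO (points, bars ± SE) for each NuRD gene at 8 h and at 24 h, on log2(normalised count + 60). CHD4 lies at -1.57 and -0.67, CHD3 at 0.29 and 0.75 and MTA3 at 0.32 and 0.60, while the other 7 genes lie within 0.20 of 0.

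Among the MTA scaffold proteins, which hold the deacetylases in the complex, MTA3 had the largest fold changes. MTA3 (chromosome 2, 42494569 to 42756947, plus strand), first known as an oestrogen-dependent form and a partner of BCL6 in B cells, had 1532, 1331 and 1396 normalised counts in AU-15330 at 8 h, against 1129 and 1117 in DMSO. After 24 h it had 2017, 1971 and 2096 in AU-15330, against 1409, 1345 and 1212 in DMSO. The groups were apart at both times, and MTA3 rose by 0.32 ± 0.077 at 8 h (limma, adjusted p = 0.00714) and by 0.60 ± 0.069 at 24 h (adjusted p = 1.77e-05), past the threshold in all 24 alternatives at each time.

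MTA2 (chromosome 11, 62593214 to 62601840, minus strand), the most abundant of the MTA genes per kb, had 18566, 19476 and 19653 normalised counts in AU-15330 at 8 h, against 18838 and 17847 in DMSO, which overlap. At 24 h it had 19777, 20768 and 20632 in AU-15330, against 18210, 18406 and 17627 in DMSO, with the groups apart. The change was 0.07 ± 0.040 at 8 h (limma, adjusted p = 0.192), and MTA2 rose by 0.17 ± 0.036 at 24 h (adjusted p = 0.00185).

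MTA1 (chromosome 14, 105419820 to 105470729, plus strand), the founding member of the family, had 5968, 6277 and 5860 normalised counts in AU-15330 at 8 h, against 5295 and 5238 in DMSO. After 24 h there were 6452, 7365 and 6532 in AU-15330, against 5457, 6269 and 6235 in DMSO. The groups were apart at both times, by a narrow margin at 24 h, with increases of 0.19 ± 0.071 (limma, adjusted p = 0.0488) and 0.18 ± 0.063 (adjusted p = 0.0343). The 8 h call held in 10 of 24 alternatives and the 24 h call in 21. Among the losses at 8 h was the one when the overlapping same-strand entry TEX22, which had 436 normalised counts in DMSO 8 h replicate 1 and 10.6 in the unnumbered library, was added to MTA1 (adjusted p = 0.157).

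Of the deacetylases, which take the same place in the complex, HDAC2 rose and HDAC1 did not pass the test. HDAC2 (chromosome 6, 113933028 to 114011308, minus strand) had 18406, 18538 and 18046 normalised counts in AU-15330 at 8 h, against 16537 and 16606 in DMSO. At 24 h the counts were 19802, 19956 and 19316 in AU-15330, against 17480, 17284 and 16807 in DMSO. Every treated library was above every DMSO library of its time, and HDAC2 rose by 0.14 ± 0.031 at 8 h (limma, adjusted p = 0.00319) and by 0.20 ± 0.028 at 24 h (adjusted p = 0.000145), in all 24 alternatives.

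HDAC1 (chromosome 1, 32292086 to 32333635, plus strand) had 13194, 13558 and 13338 normalised counts in AU-15330 at 8 h, against 14515 and 14041 in DMSO, with the treated libraries below. After 24 h it had 15216, 13892 and 14623 in AU-15330, against 15208, 15071 and 14862 in DMSO, which overlap. Neither change passed the threshold (-0.10 ± 0.040 with adjusted p = 0.0768 at 8 h, and -0.05 ± 0.036 with adjusted p = 0.305 at 24 h, limma), and the sign at 24 h turned when libraries were scaled to CPM. At 8 h HDAC1 was called lower after quantile normalisation. The share of HDAC1 in the HDAC1 and HDAC2 sum per kb was 77.2% ± 0.274 in AU-15330 and 80.0% ± 0.422 in DMSO at 8 h, and 77.5% ± 0.936 in AU-15330 and 80.3% ± 0.140 in DMSO at 24 h (SD), apart at both times. That share leans on the principal transcript of HDAC2, which is 9.87 kb long, against 2.12 kb for HDAC1.

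Of the histone chaperones, RBBP4 was above DMSO at 24 h. RBBP4 (chromosome 1, 32651142 to 32686211, plus strand), which several histone-handling complexes share, had 33611, 34535 and 34800 normalised counts in AU-15330 at 8 h, against 34468 and 33082 in DMSO, which overlap. At 24 h it had 34867, 36101 and 35384 in AU-15330, against 32287, 31876 and 31747 in DMSO, with the groups apart. The change against DMSO was 0.02 ± 0.031 at 8 h (limma, adjusted p = 0.583) and 0.15 ± 0.028 at 24 h (adjusted p = 0.000958). From 8 h to 24 h RBBP4 changed by 0.05 ± 0.028 in AU-15330 and by -0.08 ± 0.031 in DMSO. Neither passed the threshold (limma, adjusted p = 0.206 and 0.14). RBBP4 shares 25.8% of its windows with the opposite-strand gene SYNC and with pseudogenes; the pseudogene entries together held at most 97.1 normalised counts.

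RBBP7 (chromosome X, 16839283 to 16870414, minus strand), the close paralogue of RBBP4, had 14365, 13983 and 14151 normalised counts in AU-15330 at 8 h, against 14362 and 15429 in DMSO. After 24 h there were 15341, 15462 and 15041 in AU-15330, against 15032, 15706 and 15400 in DMSO. The groups overlapped at both times, and the changes of -0.07 ± 0.038 (limma, adjusted p = 0.150) and -0.01 ± 0.034 (adjusted p = 0.843) did not pass, the sign at 24 h depending on the scaling. At 8 h RBBP7 was called lower after quantile normalisation.

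MBD3 (chromosome 19, 1573596 to 1592801, minus strand), which ties the deacetylase and remodelling modules together, had 5918, 6428 and 5955 normalised counts in AU-15330 at 8 h, against 6900 and 6764 in DMSO. At 24 h the counts were 6379, 6412 and 5982 in AU-15330, against 6268, 6290 and 6502 in DMSO. It was the 1 partner called lower at 8 h on the deposited values, where its groups were apart (-0.16 ± 0.048, limma, adjusted p = 0.0168). Quantile normalisation called 3 lower at 8 h, these being MBD3, HDAC1 and RBBP7. The MBD3 call was lost without AU-15330 replicate 1, AU-15330 replicate 3 or DMSO replicate 1. With 1 library left out, the difference on the deposited log2 scale ran from -0.15 to -0.11. At 24 h the groups overlapped and the change of -0.02 ± 0.043 did not pass (adjusted p = 0.696), with a sign that turned under quantile and CPM scaling. A same-strand read-through entry shares part of MBD3, which had 34.2% of its windows in other genes; summed with it, the 8 h change was -0.16 ± 0.047 (adjusted p = 0.0155).

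Per kb of principal transcript, CHD4 stood first of the 10 in DMSO at 8 h, at 7066 ± 171 normalised counts per kb (n = 2), above HDAC1, RBBP7, MTA2 and RBBP4 in that order, although HDAC1 and RBBP7, and RBBP7 and MTA2, overlapped. In AU-15330 at 8 h CHD4 ranked 6, at 2388 ± 219 per kb, where its range overlapped those of MBD3 above it and MTA1 below it. In AU-15330 at 24 h it ranked 5, at 4351 ± 90.9 per kb, overlapping RBBP4 above it. In DMSO at 24 h it ranked 2, at 6921 ± 275 per kb, overlapping HDAC1 above it and RBBP7 below it. MTA3 was last in all 4 groups, at 921 ± 28.7 per kb in AU-15330 and 600 ± 45.7 per kb in DMSO at 24 h. Its principal transcript is 2.20 kb and its longest 5.83 kb, so of the 10 levels this one changes most between those choices. RBBP7 (2.33 against 4.03 kb) and MBD3 (2.44 against 5.52 kb) also have longer transcripts, so their places in the order are uncertain too. For HDAC2, RBBP4, CHD3 and MTA2 the principal transcript is also the longest, so this comparison cannot move them. Shorter transcripts were not tried, and the place of HDAC2 leans on a length of 9.87 kb. The CHD4 levels leave out the read-through entry. The share of MTA3 in the 3 MTA genes was 9.27% ± 0.46 in AU-15330 and 6.99% ± 0.526 in DMSO at 24 h, a difference of 2.28 points that was 0.956 points with the longest transcripts.

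**Figure D4:**
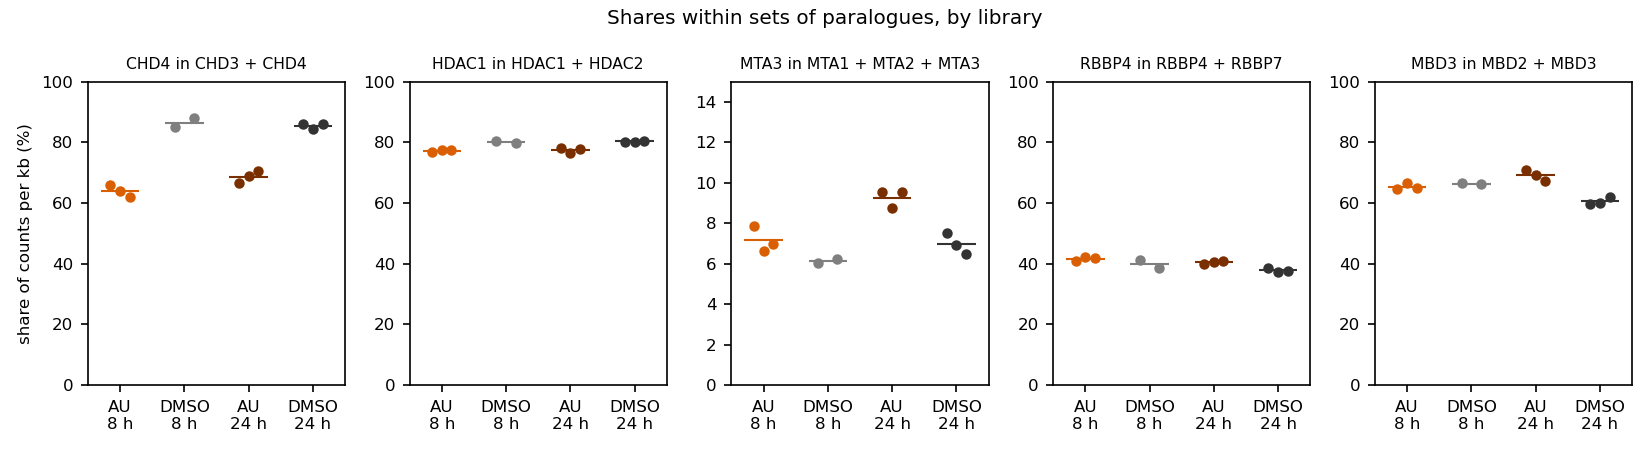
Share of 1 paralogue in its set, in percent of normalised counts per kb, in each library (points) with the group mean (line), AU-15330 left of DMSO at each time; the MTA3 panel ends at 15% and the others at 100%. CHD4 lies below DMSO at both times (63.9% against 86.5% at 8 h, 68.6% against 85.5% at 24 h). MBD3 overlaps DMSO at 8 h (65.4% against 66.3%) and is above it at 24 h (69.1% against 60.6%).

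The change of the treatment effect between times was past the threshold for 1 of the 9 partners, CHD3, where 18.5% of all genes were called (7.54% with a higher effect at 24 h). The count was 5 after quantile normalisation, 4 on either log2 CPM scale, 2 with a filter of 5 CPM and 0 to 2 with 1 library left out. MTA3 (0.28 ± 0.104, limma, adjusted p = 0.0538) and RBBP4 (0.13 ± 0.042, adjusted p = 0.0588) were nearest to the threshold. Within AU-15330, 5 partners were higher at 24 h than at 8 h (CHD3, MTA3, HDAC1, HDAC2 and RBBP7) and 0 were lower, where 39.4% of all genes were called (18.3% higher, 21.1% lower). The libraries of 8 partners at 24 h lay above those at 8 h and those of 0 lay below. Over all genes 49.5% had libraries apart in either direction. Within DMSO, 0 of the 9 passed the threshold between the times by limma, where 10.1% of all genes were called (6.56% higher, 3.56% lower) and 42.4% had libraries apart, as did 6 of the partners. At an unadjusted p under 0.05 there were 3, MTA1, MTA3 and RBBP4, and RBBP4 was called lower at 24 h on the log2 CPM scales and after quantile normalisation.

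The remaining subunits of NuRD held the largest rise among the NuRD genes tested, and 4 falls at 24 h. CDK2AP1, a small subunit also known as DOC1, rose by 0.65 ± 0.042 at 8 h (limma, adjusted p = 5.10e-07) and by 1.20 ± 0.038 at 24 h (adjusted p = 7.48e-10). It averaged 5232 ± 65.5 normalised counts in AU-15330 and 2251 ± 48.2 in DMSO at 24 h (SD, n = 3 each), with 503 bases that overlap another same-strand gene. Its paralogue CDK2AP2 fell at 24 h (-0.60 ± 0.067, adjusted p = 2.11e-05) and stood at -0.19 ± 0.075 at 8 h (adjusted p = 0.0518). Of 5 such subunits tested, 1 was higher and 2 lower at 8 h, where 22.9% of all genes were higher and 21.4% lower. There was 1 higher and 4 lower at 24 h, where 24.7% were higher and 26.2% lower. The sixth, CHD5, did not pass the filter on low values.

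MBD2, which binds methylated DNA and takes the place of MBD3, had 5961 ± 311 normalised counts in AU-15330 and 8806 ± 321 in DMSO at 24 h. Its log2 fold change was -0.56 ± 0.043 at 24 h (limma, adjusted p = 8.16e-07) and -0.10 ± 0.048 at 8 h (adjusted p = 0.103). With MBD2 lower and MBD3 not past the threshold, the share of MBD3 in their sum was 69.1% ± 1.71 in AU-15330 and 60.6% ± 1.36 in DMSO at 24 h. At 8 h the shares overlapped, at 65.4% ± 0.96 in AU-15330 and 66.3% ± 0.358 in DMSO (SD). The DMSO share was thus lower at 24 h than at 8 h, and time and batch cannot be told apart. These shares lean on the principal transcript of MBD3, which is 2.44 kb long, against 5.52 kb for its longest. GATAD2A, which bridges the MBD protein and CHD4, was lower at both times (-0.28 ± 0.057, adjusted p = 0.00225 at 8 h, and -0.32 ± 0.051, adjusted p = 0.000312 at 24 h). Its paralogue GATAD2B was lower too (-0.63 ± 0.086, adjusted p = 0.000112 at 8 h, and -0.43 ± 0.077, adjusted p = 0.000626 at 24 h), with the caution that its symbol has 2 entries in the table and reads may be split between them.

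**Figure D5:**
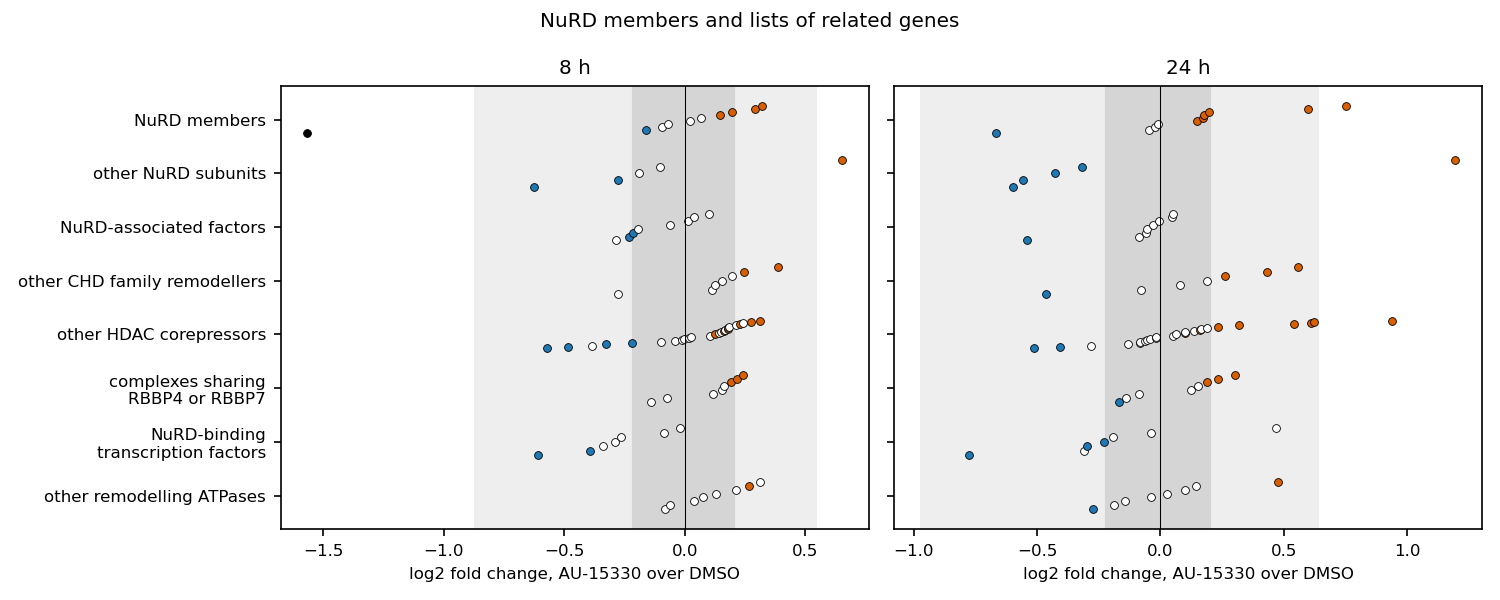
Log2 fold change of AU-15330 over DMSO at 8 h (left) and 24 h (right) for the NuRD genes and 7 lists of related genes, 1 point a gene (orange, higher; blue, lower; white, not past the threshold; black, CHD4 at 8 h, described only). Dark and light grey bands hold the middle 50% and 90% of all 12721 tested genes; CDK2AP1 at 1.20 and RCOR2 at 0.94 lie farthest right at 24 h.

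Of 8 factors that associate with NuRD, 0 were higher and 2 lower at 8 h, and 0 were higher and 1 lower at 24 h, beside the shares of all genes called, 44.2% and 50.9%. ZMYND8, a reader of acetylated histones, fell at 24 h (-0.54 ± 0.105, limma, adjusted p = 0.00109). BEND3 (-0.22 ± 0.059, adjusted p = 0.0113) and the zinc finger protein ZNF592 (-0.23 ± 0.064, adjusted p = 0.0129) fell at 8 h, and KDM1A, a histone demethylase, was at 0.05 ± 0.031 at 24 h (adjusted p = 0.206).

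The transcription factors known to recruit NuRD in blood cells had 0 higher and 2 lower of 7 tested at 8 h, and 0 higher and 3 lower at 24 h; over all genes 21.4% and 26.2% were lower. IKZF1, which encodes Ikaros, fell at 8 h (-0.39 ± 0.036, limma, adjusted p = 6.90e-06) and 24 h (-0.23 ± 0.032, adjusted p = 9.67e-05). IKZF2, which encodes Helios, fell likewise (-0.61 ± 0.074, adjusted p = 7.25e-05, and -0.30 ± 0.066, adjusted p = 0.00245). ZFPM1, a cofactor of GATA proteins, fell at 24 h (-0.77 ± 0.154, adjusted p = 0.00177), with 362 ± 70.1 normalised counts in AU-15330 and 664 ± 132 in DMSO. BCL6, a partner of MTA3 in germinal centre B cells, had 115 ± 34.2 normalised counts in AU-15330 and 65.6 ± 14.1 in DMSO at 24 h, a difference that did not pass (adjusted p = 0.0700). The list's median log2 fold change was -0.29 at 8 h and -0.23 at 24 h, beside 0.02 and 0.01 over all genes.

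Of the other CHD remodellers, 2 of 7 were higher and 0 lower at 8 h, and 3 were higher and 1 lower at 24 h, beside 44.2% and 50.9% of all genes called in either direction. CHD9 rose at both times (0.39 ± 0.050, limma, adjusted p = 0.000102, and 0.56 ± 0.045, adjusted p = 1.37e-06), as did CHD7, the gene of CHARGE syndrome (0.25 ± 0.055, adjusted p = 0.00446, and 0.26 ± 0.049, adjusted p = 0.000826). CHD2 was above DMSO at 24 h (0.43 ± 0.062, adjusted p = 0.000133), and CHD6 was below it (-0.46 ± 0.097, adjusted p = 0.00188). CHD2 averaged 6938 normalised counts in AU-15330 at 8 h and 6859 at 24 h, against 6360 and 5076 in DMSO. Its difference at 24 h thus goes with a lower DMSO level at that time, not a higher level in AU-15330.

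Corepressor complexes that use the same or related deacetylases (SIN3, CoREST, NCoR and MiDAC) had 6 higher and 4 lower of 25 genes at 8 h, and 8 higher and 2 lower at 24 h, no larger a share than the 44.2% and 50.9% called over all genes. RCOR2, a CoREST scaffold, had 3096 ± 155 normalised counts in AU-15330 and 1587 ± 80.4 in DMSO at 24 h and rose by 0.94 ± 0.069 (limma, adjusted p = 5.34e-07), against 0.02 ± 0.077 at 8 h (adjusted p = 0.865). The NCoR subunits TBL1X and TBL1XR1 went opposite ways at 24 h (0.62 ± 0.086, adjusted p = 0.000114, and -0.41 ± 0.076, adjusted p = 0.000923). MIDEAS, the MiDAC scaffold, rose at 24 h (0.54 ± 0.065, adjusted p = 2.25e-05) and SAP130 of the SIN3 complex fell (-0.51 ± 0.060, adjusted p = 2.47e-05).

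Across the 11 libraries the genes whose deposited values ran most like CHD4 were IL27RA (Pearson's r = 0.992), FZD2 (0.990), CEP70 (0.990), TOP1MT (0.989) and FAM111B (0.989). Those most like CHD3 were MFSD10 (0.976), SLC29A4 (0.973), WDR26 (0.971), SPATA2L (0.969) and LEF1 (0.969). The libraries fall into 4 groups and the genes were picked as the highest of all, so these are descriptions. Of the partners, CHD3 ran most like HDAC2 (0.934) and MTA3 (0.928).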

How the data were processed

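RNA of Z138 cells was sequenced as RNA-seq. Per the submitters' processing notes, reads were trimmed with Trimmomatic 0.40, quantified with kallisto 0.46.1 against GRCh38.p13 and handled with DESeq2 1.24.0 in R 4.3.2; the labels name more than 1 library kit without tying libraries to kits. The authors deposited 1 table of log2 values per gene and library. Its name speaks of CPM, but all libraries share a floor of 10.4, the shape of a variance-stabilising transform, on which differences of low genes are compressed. That reading of the table is an inference from its values. On that basis the transform was inverted to normalised counts, from which CPM and counts per kb were computed. Values of up to 20 counts were whole (within 0.02) for only 54.2% to 56.6% of genes, so no count test was run.

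limma 3.58.1 (R 4.3.3) was fitted with 1 mean per group over 11 libraries and 12721 genes, with 7 residual degrees of freedom, a trended prior and Benjamini-Hochberg adjustment, on the deposited log2 values. Fold changes and SE came from the same model on log2(normalised count + 60), about 1 CPM, which understates changes of low genes. Of 12 value columns, 1 was not used because it repeats another. The genes named from each list were up to 4 with the smallest p at 24 h and up to 2 at 8 h, and every measured member of the list of other subunits. Members and lists were chosen with earlier results of these data known. Alternatives covered scaling, pseudocount, filter, prior, samples in the fit, a replicate block and leaving out each library. Lengths, overlaps and sequences came from GENCODE 29. The fit was also run on simulated data with known folds and independent normal noise. Such data meet the model by design, so that run cannot show effects of batch or of divided reads.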

Additional observations from a re-analysis of the deposited data

Results flagged for a closer look

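For 8 of 40 named genes the AU-15330 effect differed between 24 h and 8 h by the limma interaction test adjusted over all genes, as it did for 18.5% of the genes tested. Most of the 40 were named for their small p at 24 h or 8 h, a choice that favours a difference between times; time and batch cannot be told apart. The effect on CHD3 was higher at 24 h by 0.46 ± 0.118 on the log2 scale (adjusted p = 0.0168). Among other NuRD subunits, the effect was higher by 0.54 ± 0.057 for CDK2AP1 (adjusted p = 0.000108), and lower for MBD2, at -0.46 ± 0.064 (adjusted p = 0.000810), and for CDK2AP2, at -0.41 ± 0.100 (adjusted p = 0.0194). RCOR2 differed by 0.92 ± 0.104 (adjusted p = 0.000187), TBL1X by 0.44 ± 0.128 (adjusted p = 0.0366) and CHD2 by 0.31 ± 0.092 (adjusted p = 0.0414). For CHD2 the DMSO mean was lower at 24 h than at 8 h (5076 against 6360 normalised counts). The AU-15330 means of CHD2 were 6859 and 6938. For IKZF1 the difference of 0.16 ± 0.048 (adjusted p = 0.0437) goes with a smaller fall, -0.23 at 24 h against -0.39 at 8 h.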

How the results depend on the processing

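Values in this paragraph are differences on the scale each setting tests, the deposited log2 scale unless CPM is named; the cause of each shift was not tested. Of the partners, 2 to 4 were higher and 0 to 1 lower at 8 h when 1 library was left out, with 2 higher without AU-15330 replicate 2 or without the unnumbered DMSO library, after which DMSO has 1 library that is assumed to vary like the rest; quantile normalisation called 3 lower. At 24 h, 5 to 6 were higher under every library left out. The interaction count was 5 with quantile normalisation, 3 with library medians centred, 4 on log2(CPM + 1) and on log2(CPM + 5), 2 with at least 5 CPM, and 0 to 2 with 1 library left out. Higher at 24 h within AU-15330 were 8 on both CPM scales and 3 to 6 with 1 library left out, 3 without AU-15330 8 h replicate 3 or 24 h replicate 2; lower within DMSO was 1 on both CPM scales and with quantile normalisation. Signs turned only for values not past the threshold. At 24 h these were HDAC1 (0.0074 and 0.0073 on the CPM scales), RBBP7 (0.037 quantile, 0.0070 medians, 0.045 and 0.044 CPM, -0.022 to 0.0054 leaving 1 out) and MBD3 (0.018 quantile, 0.032 and 0.030 CPM, -0.030 to 0.0073 leaving 1 out). RBBP4 at 8 h ran from -0.0061 to 0.049 leaving 1 out. The MTA1 interaction was 0.053 (quantile), 0.0040 (medians), 0.047 and 0.046 (CPM), 0.023 (replicate block with the unnumbered library as replicate 3), 0.037 (summed with TEX22) and -0.055 to 0.019 leaving 1 out. Within DMSO, leaving 1 out gave -0.039 to 0.19 for CHD3, -0.029 to 0.016 for MTA2 (-0.052 without the unnumbered library) and -0.0042 to 0.054 for RBBP7 (0.085 without it), which was -0.0028 with quantile normalisation. With longest transcripts the MTA3 share differed by 0.424 points at 8 h and 0.956 at 24 h, against 1.03 and 2.28. Whether replicate numbers pair the libraries was not settled. At 24 h the deviations of same-numbered libraries correlated at 0.041, 0.030 and 0.045, and those of differently numbered libraries at -0.061 to 0.020. At 8 h the value was -0.025, but the 2 DMSO libraries deviate there as mirror images (-0.025 and 0.025), so it cannot show pairing. The replicate block left 4 partners higher and 1 lower at 8 h, and 6 and 0 at 24 h. No symbol of the 10 repeats, so summing entries of the same symbol gave no other value. Summing with overlapping entries of other names did move values, as given above for CHD4 and MTA1. Each of the 10 genes had at least 1117 normalised counts in every library.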

Other observations

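Complexes that share RBBP4 or RBBP7 with NuRD had 3 higher and 0 lower of 8 genes tested at 8 h, and 3 higher and 1 lower at 24 h, beside 44.2% and 50.9% of all genes called in either direction. HAT1, a histone acetyltransferase that works with RBBP7, rose at 8 h (0.24 ± 0.043, limma, adjusted p = 0.000847) and 24 h (0.19 ± 0.038, adjusted p = 0.00146). The subunits of the chromatin assembly factor moved apart at 24 h: CHAF1B rose (0.30 ± 0.055, adjusted p = 0.000633) and CHAF1A fell (-0.17 ± 0.053, adjusted p = 0.0193). LIN9 of the DREAM complex rose at 24 h (0.23 ± 0.058, adjusted p = 0.00600).

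Of 8 other remodelling ATPases, 1 was higher and 0 lower at 8 h, and 1 was higher and 1 lower at 24 h, beside the same shares over all genes. EP400 rose at 8 h (0.27 ± 0.061, limma, adjusted p = 0.00420), HELLS rose at 24 h (0.48 ± 0.129, adjusted p = 0.00871) and INO80 fell at 24 h (-0.27 ± 0.084, adjusted p = 0.0219). ATRX was at -0.19 ± 0.077 at 24 h (adjusted p = 0.0637) and SMARCAD1 at 0.13 ± 0.057 at 8 h (adjusted p = 0.0939), neither past the threshold.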
